A study of Mus musculus with 12 samples.

Results

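The 8 TRP (transient receptor potential) channel genes described here, *Trpm3*, *Trpm1*, *Trpm7*, *Trpm4*, *Trpv4*, *Trpv2*, *Trpc4* and *Trpc1*, were taken by gene symbol from a table of 55487 mouse genes. The rule uses no measured value, but the genes were proposed with earlier results of these data known. RNA of lenses from P7 pups, whose age was 7 days, was sequenced in 12 libraries, with 3 for each of 4 *Trpm3* genotypes on a C57BL/6J background. Wild-type (WT) lenses had the unaltered gene. Knockout (KO) lenses were from a *Trpm3* line made by homologous recombination and re-derived from archived embryos, in which an IRES-*LacZ*-neo cassette interrupts the gene, so that fusion transcripts are still made and still counted. I/M and M/M lenses were from mice heterozygous and homozygous, in that order, for a CRISPR/Cas9 knock-in that exchanges an isoleucine of TRPM3 for methionine in every cell of the animal. Each library pooled lenses of both sexes, 4 male and 4 female. I/M replicate 3 held 5 counts of *Xist*, which is transcribed in female cells, against 2182 to 16856 in the other 11 libraries, so the I/M fold changes of TRP genes that passed the filter on low values are also given without it.

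TRP channels are tetrameric cation channels of the cell membrane and of organelles. Most admit calcium, and they open in response to lipids, heat, osmotic stretch, G protein signalling or calcium itself. In the lens, which has no blood supply, ion channels and pumps of the epithelium and fibers set the water content and the calcium level on which transparency depends. *Trpm3* is strongly transcribed in the lens epithelium, and its introns carry the gene of miR-204, a microRNA of eye development. *Trpm1* carries the closely related miR-211 in the same way.

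These hosted microRNAs are shown because they link the M subfamily genes at the sequence level. In GRCm38.p6, miR-204-5p lies at chr19:22750610-22750631 on the forward strand within an intron of *Trpm3*, and miR-211-5p lies at chr7:64205831-64205852 on the forward strand within an intron of *Trpm1*. Mature sequences are from RefSeq, 5′ to 3′, with the seed (bases 2 to 8) in capitals.
mmu-miR-204-5p: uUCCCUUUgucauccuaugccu
mmu-miR-211-5p: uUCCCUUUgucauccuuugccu
mmu-miR-204-3p: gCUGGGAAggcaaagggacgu
mmu-miR-211-3p: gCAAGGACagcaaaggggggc
The 5p arms share the seed and differ at 1 of 22 positions, position 17 counted from the 5′ end. The 3p arms have different seeds. The libraries were made from poly-A RNA, which does not capture mature microRNAs, and the gene entries *Mir204* and *Mir211* held 0 counts in all 12 libraries, so neither microRNA was measured.

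The total counted on genes ran from 56162169 to 82090198 per library. The 16 crystallin genes, which define lens fibers, took 59.9% to 63.9% of the counts in wild-type and KO, 57.1% to 58.2% in I/M and 49.4% to 51.3% in M/M libraries, so the tissue matched its label. Levels are CPM, the count of a gene relative to the sum of its library, after TMM scaling, which sets most genes to about equal levels in all libraries. Scaling by library size alone moved the median of the log2 fold changes over all tested genes to 0.50 in M/M and 0.20 in I/M against wild-type, and fold changes below are relative to that median. Differences were tested in one edgeR quasi-likelihood fit over the 12 libraries with Benjamini–Hochberg adjustment over all 8984 genes that reached 5 CPM in at least 3 libraries. For this filter CPM was taken by library size, before TMM scaling. A gene is called at FC ≥ 2 and FDR ≤ 0.05, and the FDR alone is given beside it. Lenses are bulk samples, so fewer cells of a type and less RNA per cell cannot be told apart. The sources do not say whether the pools of a genotype came from separate litters, and p-values then measure the spread between these libraries only.

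Of the 8 genes, *Trpm3*, *Trpm1*, *Trpm7*, *Trpv4* and *Trpc4* passed the filter on low values. *Trpv4* passed through the I/M and M/M libraries and *Trpc4* through the M/M libraries, so that filter favoured a difference in these genes. *Trpm4*, *Trpc1* and *Trpv2* were below it and were tested in a fit of all 32253 genes with at least 1 count. Levels of different genes were compared per kilobase of merged exons. In wild-type lenses *Trpm3* was the highest of the 8 at 11.0 ± 0.708 CPM per kilobase (SD, n = 3). *Trpm7* followed at 1.39 ± 0.091, *Trpv4* at 0.746 ± 0.0908 and *Trpm1* at 0.503 ± 0.057 CPM per kilobase (SD, n = 3 each). *Trpc1* at 0.265 ± 0.0256 and *Trpm4* at 0.250 ± 0.0473 CPM per kilobase overlapped in their libraries (SD, n = 3 each). *Trpv2* lay at 0.0328 ± 0.0175 and *Trpc4* at 0.00338 ± 0.00293 CPM per kilobase (SD, n = 3 each). All other neighbours in this order were apart in every library. Dividing by the longest annotated transcript instead put *Trpm1* above *Trpv4* and *Trpm4* above *Trpc1*.

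In M/M lenses the order changed. *Trpm3* stayed first at 19.4 ± 0.328 CPM per kilobase, and *Trpc4* moved from the last place to the fourth at 0.915 ± 0.0787 CPM per kilobase, with libraries that overlapped those of *Trpm1* at 0.844 ± 0.0813 (SD, n = 3 each). In I/M lenses *Trpv4* stood second at 1.75 ± 0.233 CPM per kilobase, apart from *Trpm7* at 1.29 ± 0.0629 (SD, n = 3 each). *Trpm3* made up 49.3% ± 1.95 of the summed level per length of the 28 TRP superfamily genes in wild-type, 24.5% ± 1.17 in KO, 54.5% ± 2.13 in I/M and 58.4% ± 0.903 in M/M lenses (SD, n = 3 each).

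**Figure D1:**
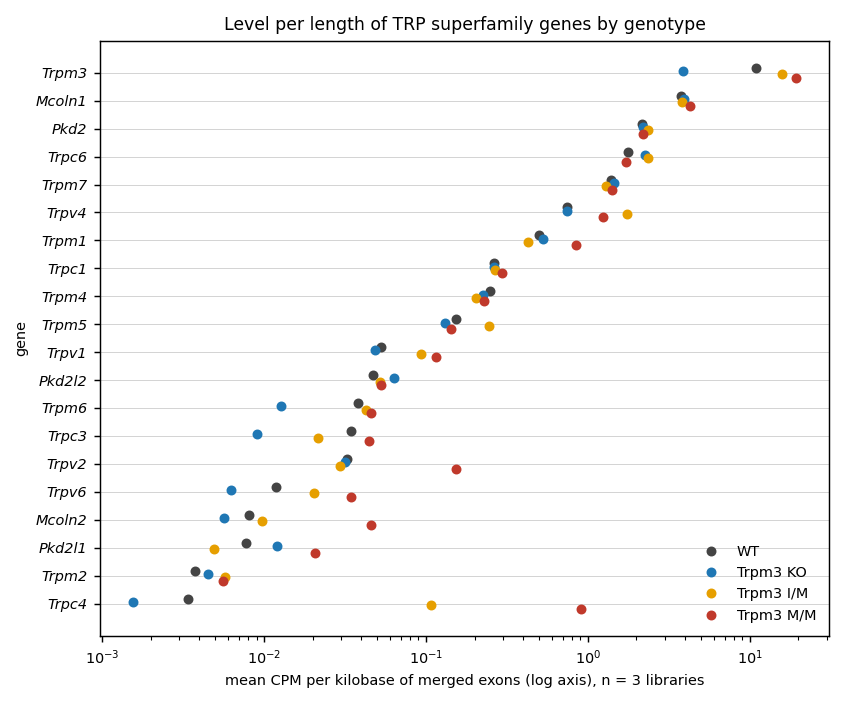
Mean level per length of 20 TRP superfamily genes in the 4 genotypes, in CPM per kilobase of merged exons on a log axis, with 1 point per genotype (mean of 3 libraries) and genes ordered by the wild-type level. *Trpm3* was highest in every genotype, *Trpc4* spanned the widest range, and 8 genes at 0 in at least 1 genotype are not drawn.

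*Trpm3*, the targeted gene (ENSMUSG00000052387, chr19:22139046-22995410 of GRCm38, forward strand), encodes a calcium-permeable channel opened by heat and pregnenolone sulfate. Wild-type libraries held 269.9, 250.6 and 285.1 CPM. KO libraries held 89.9, 99.8 and 96.3 CPM, I/M libraries 370.2, 413.4 and 376.1 CPM, and M/M libraries 473.0, 468.5 and 484.1 CPM. The 4 genotypes did not overlap. *Trpm3* fell by 1.49 on the log2 scale in KO against wild-type (standard error 0.06, edgeR adjusted p = 3.36e-09). It rose by 0.53 in I/M (standard error 0.06, edgeR adjusted p = 1.62e-05) and by 0.82 in M/M lenses (standard error 0.06, edgeR adjusted p = 5.84e-08). M/M exceeded I/M by 0.30 (standard error 0.06, edgeR adjusted p = 0.000926) and KO by 2.32 (standard error 0.06, edgeR adjusted p = 6.34e-12). The knock-in lenses thus held 1.44-fold and 1.77-fold the wild-type level, below the fold that a call asks for. Without I/M replicate 3 the rise in I/M was 0.55 (standard error 0.07, edgeR adjusted p = 6.66e-05) and the excess of M/M over I/M was 0.28 (standard error 0.07, edgeR adjusted p = 0.00527). The counts are sums over the gene, in which cassette fusion transcripts of the knockout allele are not told apart, and 2 genes on the opposite strand, *Gm27151* and *C330002G04Rik*, share 1.13% and 1.44% of its merged exon bases.

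*Trpm1* (ENSMUSG00000030523, chr7:64153835-64269775, forward strand) encodes the channel through which ON bipolar cells of the retina respond to light and is also transcribed in melanocytes. Wild-type libraries held 8.38, 7.08 and 6.80 CPM and KO libraries 7.78, 7.92 and 7.72 CPM. I/M libraries held 6.54, 6.46 and 5.87 CPM, all below the wild-type range, and M/M libraries held 11.53, 13.80 and 12.02 CPM, all above it. *Trpm1* rose by 0.75 on the log2 scale in M/M against wild-type (standard error 0.09, edgeR adjusted p = 6.26e-06), by 0.98 against I/M (standard error 0.09, edgeR adjusted p = 9.44e-07) and by 0.67 against KO (standard error 0.09, edgeR adjusted p = 1.42e-05). The value for I/M against wild-type was -0.24 (standard error 0.09, edgeR adjusted p = 0.0629), which did not pass, and -0.19 without I/M replicate 3 (edgeR adjusted p = 0.187), while leaving out wild-type replicate 3 gave -0.30 (edgeR adjusted p = 0.0344). With library size only it was -0.04 (edgeR adjusted p = 0.76). In KO against wild-type the value with TMM scaling was 0.07 (standard error 0.09, edgeR adjusted p = 0.742). The difference of M/M from I/M was 0.94 without I/M replicate 3 (edgeR adjusted p = 9.91e-06).

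Markers of cells that transcribe *Trpm1* elsewhere in the eye were measured in the same libraries. Of the 7 genes of the ON bipolar list, the glutamate receptor gene *Grm6* held at most 2 counts and the transcription factor gene *Vsx1* at most 1 count in any library. The list summed to 22.2–26.7 CPM in wild-type, 29.6–38.9 in KO, 33.6–41.6 in I/M and 56.1–73.4 CPM in M/M libraries. Most of the M/M sum came from *Cabp5*, a calcium-binding protein gene, with 3772 to 4742 counts per library against 202 to 353 in wild-type. *Nyx* of the same list went the other way, from 12.9–16.5 CPM in wild-type to 4.78–8.23 CPM in M/M libraries. Of the 3 list genes tested, 2 passed the FDR as higher and 1 as lower in M/M against wild-type, beside 62.7% of all genes. Of the 8 genes of the melanocyte and pigmented epithelium list, the melanin enzyme gene *Tyr* held at most 2 counts in any library. The sum of that list was lower in M/M, at 14.5–15.2 CPM, than in I/M at 19.4–20.4, KO at 24.9–26.8 and wild-type libraries at 23.8–25.9 CPM. The difference lay mainly in *Mitf*, at 17.8–19.4 CPM in wild-type and 11.4–11.6 in M/M, and *Oca2*, at 2.79–3.38 and 0.0542–0.0625 CPM. Other members differed in direction. *Dct* was higher in M/M, at 0.300–0.564 CPM against 0.168–0.216 in wild-type, and *Tyrp1* was higher in I/M, at 4.28–4.97 CPM against 2.10–2.48 in wild-type. *Rpe65*, which defines the retinal pigment epithelium, was at 0 in all 12 libraries. The 4 genes of that list summed to 0.294–0.456 CPM in wild-type, 0.282–0.393 in KO, 0.260–0.365 in I/M and 0.803–1.11 CPM in M/M libraries. Most of the M/M sum came from 1 gene, *Rlbp1*, at 0.575–0.971 CPM. *Best1* of that list was not higher, at 0.105–0.159 CPM in wild-type and 0.079–0.125 CPM in M/M libraries, and *Ttr* overlapped between these genotypes. *Rlbp1*, a retinoid-binding protein gene of that list, held 9 to 10 counts in wild-type and 53 to 86 in M/M libraries.

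The promoter of *Trpm1* is shown with that of *Trpc4* and *Trpv4*, the TRP genes that were called in I/M against wild-type. Each run holds 250 bases before and 50 after the first annotated start (RefSeq, GRCm38.p6, 5′ to 3′ on the gene's strand). Both strands were searched for the E-box CATGTG of the M-box that MITF binds in pigment cells, for the AP-1 site TGANTCA and for the CRE TGACGTCA, which share no match in these windows. Matches are in capitals. *Trpm1* lies at chr7:64153585-64153884 on the forward strand, *Trpc4* at chr3:54155807-54156106 on the forward strand and *Trpv4* at chr5:114658372-114658671 on the reverse strand.
Trpm1: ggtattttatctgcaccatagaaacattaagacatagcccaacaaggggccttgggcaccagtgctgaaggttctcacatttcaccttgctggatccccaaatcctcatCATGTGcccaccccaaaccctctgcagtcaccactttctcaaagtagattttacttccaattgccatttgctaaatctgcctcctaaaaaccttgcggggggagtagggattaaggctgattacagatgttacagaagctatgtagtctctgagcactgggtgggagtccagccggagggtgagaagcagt
Trpc4: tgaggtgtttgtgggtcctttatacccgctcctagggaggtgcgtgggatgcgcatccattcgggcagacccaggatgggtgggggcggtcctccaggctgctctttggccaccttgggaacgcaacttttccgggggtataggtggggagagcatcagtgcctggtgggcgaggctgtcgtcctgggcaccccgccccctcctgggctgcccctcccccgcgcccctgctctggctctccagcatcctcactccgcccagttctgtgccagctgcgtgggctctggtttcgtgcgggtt
Trpv4: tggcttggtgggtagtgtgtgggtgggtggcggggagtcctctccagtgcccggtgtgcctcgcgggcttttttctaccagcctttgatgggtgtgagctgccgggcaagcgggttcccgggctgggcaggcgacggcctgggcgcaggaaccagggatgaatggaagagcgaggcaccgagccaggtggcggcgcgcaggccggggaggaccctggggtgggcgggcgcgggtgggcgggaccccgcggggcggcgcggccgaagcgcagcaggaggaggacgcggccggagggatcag
*Trpm1* held 1 match to CATGTG, starting at position -141 from the start, and the windows of *Trpc4* and *Trpv4* held none of the 3 motifs. The window of a second annotated start of *Trpm1*, chr7:64185209-64185508, also held 1 match to CATGTG, at position 37. Which start is used in the lens was not tested. Of 32851 promoters of the same length, 14.2% held CATGTG, 7.81% TGANTCA and 1.79% TGACGTCA. GC content was 48.3% for *Trpm1*, 66.0% for *Trpc4* and 73.0% for *Trpv4*.

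*Trpm7* (ENSMUSG00000027365, chr2:126791565-126876230, reverse strand) encodes a magnesium- and calcium-permeable channel fused to a kinase, found in nearly every cell type. Its libraries ran from 15.1 to 16.9 CPM in wild-type, 16.1 to 17.1 in KO, 14.0 to 15.3 in I/M and 15.4 to 16.6 CPM in M/M. No difference passed the test in any of the 5 comparisons, and the log2 fold change in M/M against wild-type was 0.03 (standard error 0.06, edgeR adjusted p = 0.676). An interval of 2 standard errors to either side of that value ran from -0.08 to 0.14. M/M against I/M, at 0.14 (standard error 0.06, edgeR adjusted p = 0.0567), lay near the threshold. It passed at 0.17 without I/M replicate 3 (edgeR adjusted p = 0.0331), at 0.14 without wild-type replicate 1 (edgeR adjusted p = 0.0335) and at 0.18 without M/M replicate 2 (edgeR adjusted p = 0.0374). I/M against wild-type was -0.11 (edgeR adjusted p = 0.178), and -0.15 without I/M replicate 3 (edgeR adjusted p = 0.106). With library size only the value for M/M against wild-type became 0.54 (edgeR adjusted p = 7.64e-06), and 0.03 relative to the median of all genes under that scaling. *Trpm4* (ENSMUSG00000038260, chr7:45302632-45333780, reverse strand), a calcium-activated channel for monovalent cations, averaged 2.71 ± 0.512 CPM in wild-type (SD, n = 3). Its mean was 2.42 ± 0.203 CPM in KO, 2.19 ± 0.0994 in I/M and 2.48 ± 0.252 CPM in M/M lenses (SD, n = 3 each). No comparison of *Trpm4* passed (lowest edgeR adjusted p = 0.225, in I/M against wild-type, in the fit without a filter and with bias-adjusted dispersion).

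**Figure D2:**
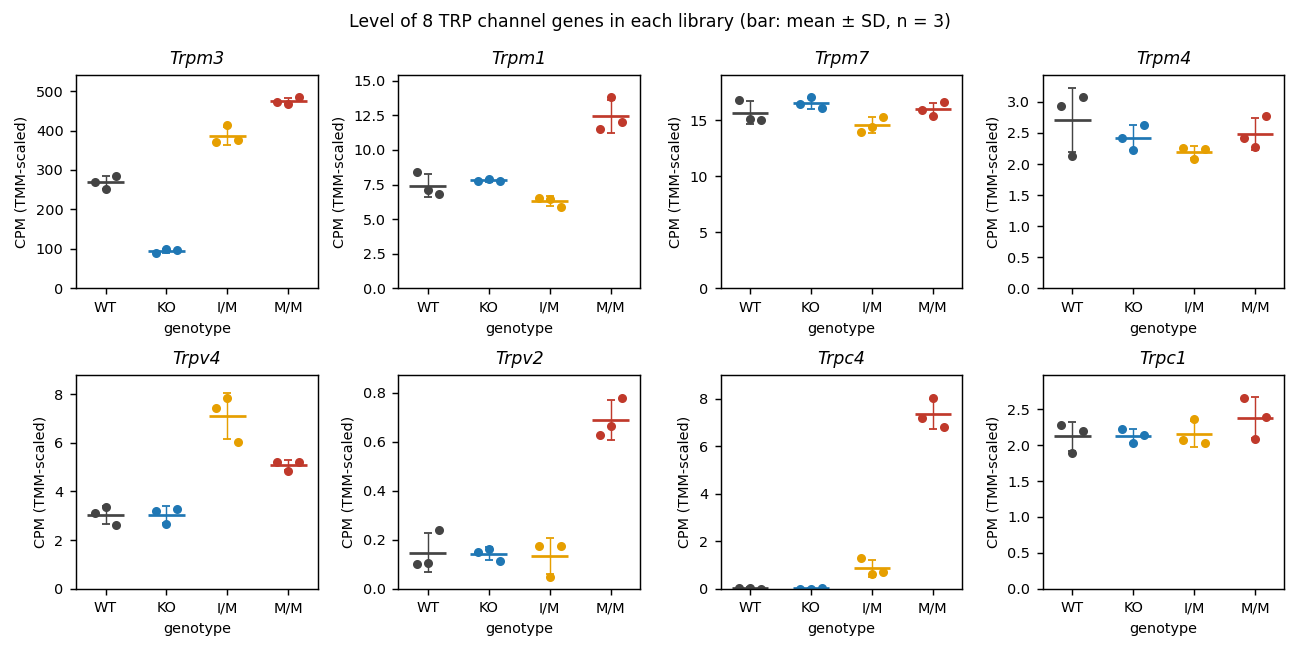
Level of each of the 8 TRP channel genes in CPM (TMM-scaled, linear axes from 0) by genotype, with 1 point per library and a bar for the mean ± SD of 3 libraries. *Trpm3* separated all 4 genotypes, *Trpv4* was highest in I/M, *Trpc4* and *Trpv2* were highest in M/M, and *Trpm7*, *Trpm4* and *Trpc1* overlapped wild-type in M/M.

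*Trpv4* (ENSMUSG00000014158, chr5:114622152-114658421, reverse strand) encodes a calcium channel that responds to cell swelling, warmth and stretch and takes part in the regulation of lens pressure. Wild-type libraries held 3.13, 3.36 and 2.64 CPM and KO libraries 3.21, 2.64 and 3.27 CPM. I/M libraries held 7.46, 7.86 and 6.05 CPM, and M/M libraries 5.20, 4.84 and 5.22 CPM. Every knock-in library lay above every wild-type and KO library, and the heterozygous libraries lay above the homozygous ones. *Trpv4* rose by 1.23 on the log2 scale in I/M against wild-type (standard error 0.12, edgeR adjusted p = 5.74e-06), which is 2.35-fold. In M/M it rose by 0.74 against wild-type (standard error 0.12, edgeR adjusted p = 0.000157) and by 0.74 against KO (standard error 0.12, edgeR adjusted p = 0.000138). M/M lay below I/M at -0.49 (standard error 0.11, edgeR adjusted p = 0.00273). That last difference was -0.18 with library size only (edgeR adjusted p = 0.16). In KO against wild-type it was 0.00 (standard error 0.13, edgeR adjusted p = 0.999). Without I/M replicate 3 the rise in I/M was 1.33 (edgeR adjusted p = 3.84e-06) and the difference of M/M from I/M was -0.59 (edgeR adjusted p = 0.000881). These values are from the fit after the filter, which *Trpv4* passed through the knock-in libraries. In the fit without a filter and with bias-adjusted dispersion it rose by 1.26 in I/M and 0.73 in M/M against wild-type (edgeR adjusted p = 2.34e-08 and 2.37e-05).

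*Trpv2* (ENSMUSG00000018507, chr11:62574486-62600515, forward strand) encodes a calcium-permeable channel known from macrophages, muscle and sensory neurons. It held 5, 5 and 12 counts in wild-type, 8, 9 and 6 in KO, 13, 4 and 12 in I/M and 50, 61 and 69 counts in M/M libraries. The M/M libraries lay above all others, and the other genotypes overlapped. In the fit without a filter and with bias-adjusted dispersion, *Trpv2* rose by 2.20 on the log2 scale in M/M against wild-type (standard error 0.34, edgeR adjusted p = 1.98e-05), by 2.37 against I/M (standard error 0.31, edgeR adjusted p = 3.04e-06) and by 2.26 against KO (standard error 0.34, edgeR adjusted p = 1.01e-05). By library size only the log2 ratio of the mean CPM in M/M to wild-type was 2.73.

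**Figure D3:**
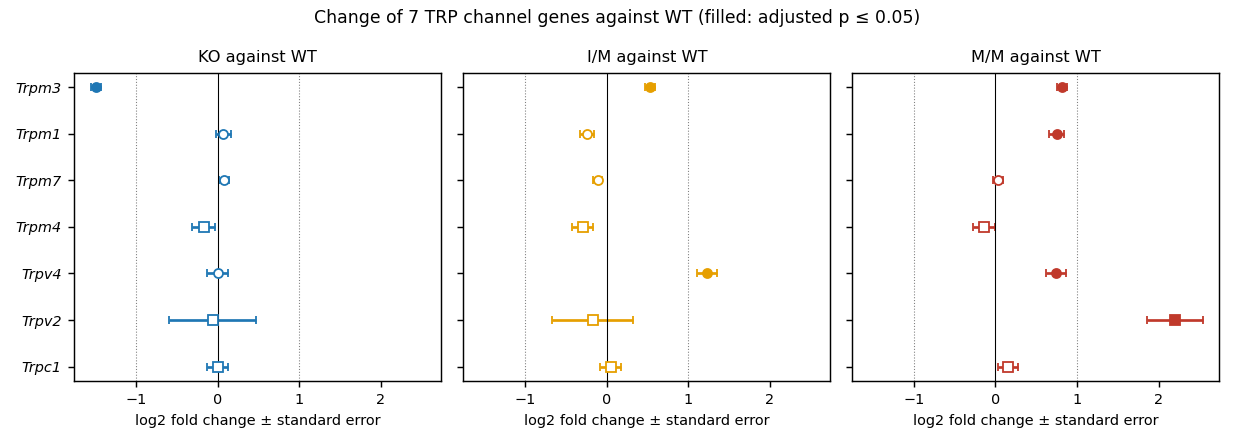
Log2 fold change ± standard error of 7 TRP channel genes in KO, I/M and M/M against WT, with filled symbols at an adjusted p of at most 0.05 and dotted lines at a change of 2-fold. Circles are genes tested after the filter and squares are genes below it, from the fit without a filter; *Trpm3* alone passed in KO, and *Trpm3* and *Trpv4* passed in both I/M and M/M. *Trpc4* is not drawn because its wild-type libraries held at most 2 counts.

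*Trpc4* (ENSMUSG00000027748, chr3:54156035-54318471, forward strand) encodes a receptor-operated calcium channel that opens downstream of G proteins and phospholipase C. It was close to absent in wild-type and KO lenses and present in both knock-in genotypes. Wild-type libraries held 2, 2 and 0 counts and KO libraries 0, 0 and 2 counts, I/M libraries 94, 50 and 48 counts, and M/M libraries 574, 742 and 604 counts. I/M libraries lay above all wild-type and KO libraries, and M/M libraries lay above all of these. Summed over libraries and scaled by TMM, the level in M/M was 274 times that in wild-type (95% exact counting interval 107 to 1010) and the level in I/M was 31.7 times that in wild-type (12.2 to 117). Against KO, M/M was 596 times higher (165 to 4930). These intervals cover counting error only and rest on 4 counts in wild-type and 2 in KO. Both KO counts lay in replicate 3, and without it the fitted log2 fold change of M/M against KO went from 9.01 to 11.96, so the size of that ratio rests on 1 library. The edgeR adjusted p was 2.82e-09 in M/M and 3.09e-05 in I/M against wild-type, and 5.74e-05 in I/M without I/M replicate 3, where the fitted log2 fold change went from 4.89 to 5.02. These values are from the fit after the filter, which *Trpc4* passed through the M/M libraries. In the fit without a filter and with bias-adjusted dispersion it was 7.99 in M/M and 4.92 in I/M against wild-type (edgeR adjusted p = 8.01e-17 and 8.64e-08). M/M exceeded I/M by 3.10 on the log2 scale (standard error 0.22, edgeR adjusted p = 1.76e-07), and by 2.98 without I/M replicate 3 (standard error 0.26, edgeR adjusted p = 2.46e-06). KO and wild-type were both within 3 counts per library, and no fold is given. *Trpc1* (ENSMUSG00000032839, chr9:95705082-95750375, reverse strand), a channel subunit that assembles with other TRPC subunits, held 90 to 116 counts per wild-type library. Its mean was 2.12 ± 0.206 CPM in wild-type, 2.13 ± 0.0998 in KO, 2.16 ± 0.183 in I/M and 2.38 ± 0.285 CPM in M/M lenses (SD, n = 3 each), with overlapping libraries. No comparison of *Trpc1* passed (lowest edgeR adjusted p = 0.439, in the fit without a filter and with bias-adjusted dispersion).

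Summed markers of vessel and immune cells were highest in M/M libraries, as *Trpc4* and *Trpv2* were. In I/M the endothelium and macrophage sums exceeded wild-type, and the macrophage sum, at 0.836–0.997 CPM, lay below its 8.23–15.1 CPM in M/M. *Trpv2* was at only 0.0486–0.175 CPM in I/M libraries, where a small change could not be seen. Its value against wild-type there was -0.17 in the fit without a filter and with bias-adjusted dispersion (edgeR adjusted p = 0.978). The pericyte sum was also above wild-type in KO, mainly through *Pdgfrb*, at 9.53–13.8 CPM in wild-type and 16.6–19.1 in KO. *Rgs5*, *Cspg4* and *Abcc9* of that list overlapped between these genotypes, and *Kcnj8* held at most 1 count per library in both. *Rgs5* was at 0.256–0.971 CPM in wild-type, 0.319–0.742 in KO and 29.1–34.1 CPM in M/M libraries. All 8 genes of the vascular endothelium list had counts in every genotype, and they summed to 13.8–16.3 CPM in wild-type, 13.71–14.97 in KO, 24.6–30.6 in I/M and 55.3–64.5 CPM in M/M libraries. Most of the wild-type sum came from *Egfl7*, at 7.20–8.09 CPM in wild-type and 7.51–9.10 in M/M, and *Tek*, at 4.81–6.48 and 11.0–12.4 CPM. *Cdh5* went from 0.084–0.396 to 8.13–11.9 CPM and *Cldn5* from 0.059–0.178 to 10.1–11.6 CPM. Of the 6 list genes tested in M/M against wild-type, 5 passed the FDR as higher and 1 did not pass, with a median log2 fold change of 4.28. All 5 pericyte genes had counts in every genotype, and they summed to 11.97–15.67 CPM in wild-type, 18.9–21.3 in KO, 17.2–26.4 in I/M and 58.2–65.8 CPM in M/M libraries. The 8 macrophage genes summed to 0.278–0.452 CPM in wild-type, where *Ptprc* was at 0, and to 0.217–0.318 CPM in KO, where *C1qc* was at 0. They summed to 0.836–0.997 CPM in I/M and to 8.23–15.1 CPM in M/M libraries, with a count of each of the 8. The lens fiber list of 12 genes went the other way, from at least 373000 CPM in wild-type to at most 245100 CPM in M/M libraries. The lens epithelium list of 7 genes summed to 576.5–628.9 CPM in wild-type and 497.6–530.8 CPM in M/M libraries. Its members moved in both directions: in M/M against wild-type 1 passed the FDR as higher, 3 as lower and 3 did not pass, beside 62.7% of all genes that passed. *Cdh2*, the largest part of the sum, was at 240–253 CPM in wild-type and 264–291 in M/M, while *Foxe3* was at 76.7–105 and 17.9–21.2 CPM. The part of these cells in the changes of *Trpc4*, *Trpv2*, *Trpv4* and *Trpm1* was not tested.

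**Figure D4:**
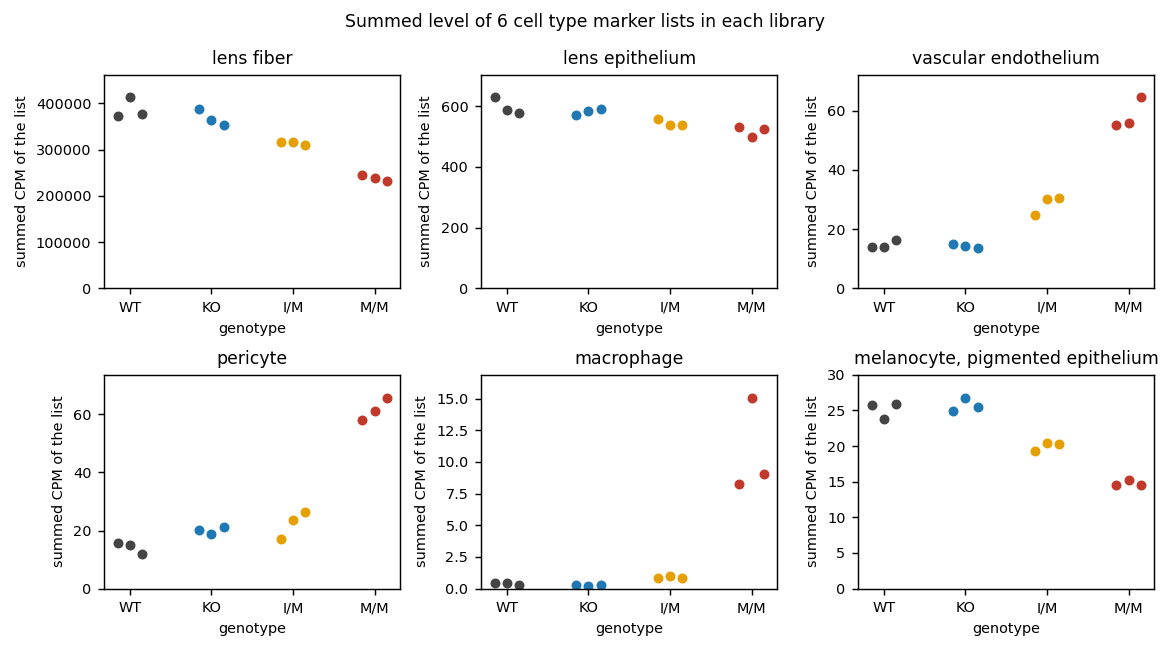
Summed CPM of 6 cell type marker lists (linear axes from 0), with 1 point per library in each genotype. Vascular endothelium, pericyte and macrophage lists were highest in M/M, and the lens fiber and pigmented cell lists were lowest there.

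The counts over the genes that passed the filter include *Trpv4* and *Trpc4*, which passed it through libraries in which they were high, so these counts are a description and nothing is read from their size. In KO against wild-type, 1 of the 5 genes that passed the filter was called, *Trpm3* itself, where 0.568% of all 8984 genes were called, and the FDR alone gave the same count beside 4.36% of all genes. In I/M against wild-type, *Trpv4* and *Trpc4* were called beside 3.33% of all genes, and 3 genes passed the FDR alone beside 32.6%. In M/M against wild-type, *Trpc4* was called beside 8.95% of all genes, and 4 of the 5 passed the FDR alone beside 62.7%, so a pass at the FDR alone was common in this comparison. Between M/M and I/M, *Trpc4* was called beside 4.70% of all genes, and 4 of the 5 passed the FDR alone beside 51.3%. *Trpm3* and *Trpc4* were called in M/M against KO beside 9.78%, and 4 passed the FDR alone beside 64.8%. The comparisons share wild-type or M/M libraries. The fit without a filter and with bias-adjusted dispersion tested all 8 TRP genes among 32253. There *Trpm3* was called in KO against wild-type, where 0.595% of all genes were called, and *Trpv4* and *Trpc4* were called in I/M, where 3.17% were. *Trpv2* and *Trpc4* were called in M/M against wild-type and against I/M, where 10.4% and 7.19% of all genes were called, and *Trpm3*, *Trpv2* and *Trpc4* in M/M against KO, where 11.7% were.

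**Figure D5:**
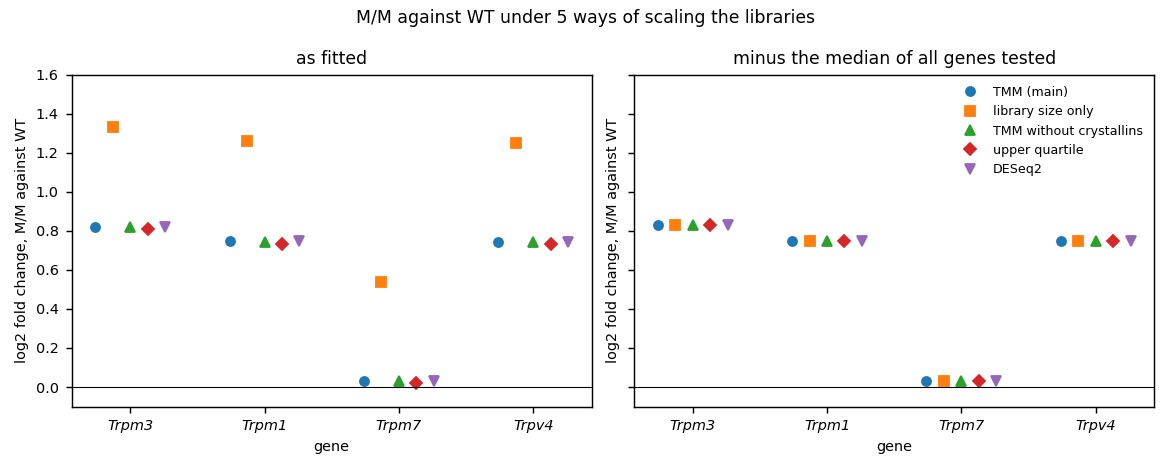
Log2 fold change in M/M against WT of 4 TRP channel genes under 5 ways of scaling the libraries, as fitted (left) and minus the median of all genes tested (right). Library size only raised every value by about the shift of the median, 0.50, and after its removal each gene kept the same value under all 5, such as 0.83 for *Trpm3* and 0.03 for *Trpm7*.

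Among the 28 TRP superfamily genes, *Trpm8* and *Trpv5* had no count, and 7 genes held at most 3 counts in every library. Besides those described, 3 superfamily genes passed the filter. *Trpc6*, a channel opened by diacylglycerol, ran from 8.07 to 10.1 CPM in wild-type, 10.8 to 11.7 in KO, 10.8 to 14.4 in I/M and 6.57 to 10.8 CPM in M/M libraries. It differed between M/M and I/M by -0.45 on the log2 scale (standard error 0.15, edgeR adjusted p = 0.0262) although the libraries overlapped. That difference was -0.15 with library size only (edgeR adjusted p = 0.409) and did not pass without I/M replicate 3 (-0.30, edgeR adjusted p = 0.13), M/M replicate 2 (-0.26, edgeR adjusted p = 0.137) or M/M replicate 3 (-0.45, edgeR adjusted p = 0.0647). *Mcoln1*, a lysosomal calcium channel, rose by 0.18 in M/M against wild-type (standard error 0.05, edgeR adjusted p = 0.0101). *Pkd2*, a channel of primary cilia, was 0.02 in that comparison (standard error 0.05, edgeR adjusted p = 0.782). Of the 8 superfamily genes tested, 5 passed the FDR in M/M against wild-type, all as higher, a share near the 62.7% of all genes. In I/M 3 passed, all as higher, beside 32.6% of all genes, and in KO 1 passed, as lower, beside 4.36%. Leaving out *Trpv4* and *Trpc4*, 3 of 6 passed in M/M, 1 in I/M and 1 in KO, with a median log2 fold change in M/M of 0.10 beside 0.00 for all genes. With library size only all 8 passed as higher in M/M, as did 7364 of all 8984 genes. Among genes below the filter, *Trpm5*, *Trpv1* and *Mcoln2*, named after their values were seen, passed the FDR alone in the fit without a filter and with bias-adjusted dispersion, where 10.8% of all genes passed in I/M and 27.7% in M/M. *Trpm5* was higher by 0.69 in I/M against wild-type (edgeR adjusted p = 0.00619), and in M/M against wild-type *Trpv1* was higher by 1.08 (edgeR adjusted p = 0.0141) and *Mcoln2* by 2.42 (edgeR adjusted p = 0.00767). *Mcoln2* lay at only 0.0198–0.0393 CPM in wild-type and 0.0875–0.239 CPM in M/M libraries, so the size of its change rests on very few counts.

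Genes that regulate or bind TRP channels were taken as a list of 47, of which 38 were tested. In M/M against wild-type, 16 passed the FDR as higher, 8 as lower and 14 did not pass, with a median log2 fold change of 0.20 beside 0.00 for all genes. The 24 that passed are a share near the 62.7% of all genes. For I/M the counts were 6 and 9, beside 32.6% of all genes, and for KO 0 and 4, beside 4.36%, of which none passed without KO replicate 3 and 1 passed without KO replicate 2 or wild-type replicate 3. With library size only they were 34 and 2 in M/M and 18 and 3 in I/M, beside 7364 and 495 of all genes in M/M. *Pacsin3*, whose product binds TRPV4, fell by 1.11 on the log2 scale in M/M against wild-type, from 153 to 70.7 CPM (standard error 0.08, edgeR adjusted p = 8.96e-08). It fell by 0.90 in I/M (standard error 0.08, edgeR adjusted p = 2.77e-06). With library size only it fell by 0.60 in M/M (edgeR adjusted p = 1.86e-06) and by 0.70 in I/M (edgeR adjusted p = 2.82e-06). A link between the changes of *Pacsin3* and *Trpv4* was not tested. *Gnb4*, which passed the filter through the knock-in libraries, encodes a G protein beta subunit of the kind that inhibits TRPM3. It rose by 1.02 in M/M, from 3.61 to 7.34 CPM (standard error 0.09, edgeR adjusted p = 5.73e-07), rose by 0.62 in I/M (edgeR adjusted p = 0.00024) and fell by 0.49 in KO (edgeR adjusted p = 0.0145), though not past the test without KO replicate 3 (-0.45, edgeR adjusted p = 0.0753). The phospholipase C gene *Plcb3* rose by 0.63 in M/M (edgeR adjusted p = 9.01e-07) and was lower in I/M at -0.31 (edgeR adjusted p = 0.00197, and 0.216 with library size only). *Plcg1*, another phospholipase C, was lower in M/M, at -0.49 (edgeR adjusted p = 2.1e-06) and in I/M, at -0.46 (edgeR adjusted p = 1.48e-05), but stood at 0.02 in M/M with library size only (edgeR adjusted p = 0.801). In KO its value of -0.20 (edgeR adjusted p = 0.0478) did not pass when any library other than KO replicate 1 was left out (edgeR adjusted p of 0.0506 to 0.189). Without I/M replicate 3 the I/M values were -0.96 for *Pacsin3*, 0.55 for *Gnb4*, -0.31 for *Plcb3* and -0.48 for *Plcg1*, and all 4 passed (edgeR adjusted p of 8.93e-06 to 0.00718). *Dgkz*, whose product removes diacylglycerol, rose by 0.64 in M/M (edgeR adjusted p = 9.59e-07).

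The genes whose log2 CPM over the 12 libraries was most like each TRP gene were ranked by Pearson's r, as a description, since libraries of a genotype share its level. For *Trpm3* these were *Anxa5* (r = 0.970), a calcium-dependent phospholipid-binding protein gene at 10.8 CPM in KO and 45.5 CPM in M/M lenses, *Zdhhc2* (r = 0.968) and *Tmem30a* (r = 0.965). For *Trpm1* they were the lysosomal protease gene *Ctsc* (r = 0.979), which held 2.20 CPM in I/M and 33.0 CPM in M/M, *Porcn* (r = 0.977) and *Ddah1* (r = 0.973). For *Trpv4* they were *Arl6ip1* (r = 0.973), the matrix gene *Npnt* (r = 0.969) and *Shank1* (r = 0.968), a scaffold gene at 8.94 CPM in wild-type, 36.3 in I/M and 20.7 CPM in M/M. For *Trpc4* they were *Vdr* (r = 0.995), the vitamin D receptor gene, at 0.0402 CPM in wild-type, 0.925 in I/M and 6.71 CPM in M/M, *Agpat4* (r = 0.994) and *Serinc5* (r = 0.992). For *Trpm7*, which varied little, they were *Zbtb10* (r = 0.919), *Pan2* (r = 0.906) and *Ccdc9* (r = 0.902). Ranked by Spearman's correlation, 4 of these 15 genes were among the nearest 3.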

How the data were processed

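RNA from P7 lenses of 4 genotypes was measured in 12 libraries, grouped by the genotype and replicate in their titles. The authors aligned and counted poly-A reads with DRAGEN against Ensembl release 101 (mm10, which is GRCm38) and deposited an estimated (expected) count per gene and library, neither normalized nor pooled. A second deposited table holds the same counts, CPM, fold changes and p-values of the authors' comparisons, which were not used. The tests had been chosen for whole counts, but 88.4% of the deposited estimated counts were whole, so they were rounded. For 168 identifiers with repeated entries, which were equal, a single entry was used.

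The 8984 genes with at least 5 CPM in at least 3 libraries, by library size before TMM scaling, were fitted together over all libraries by genotype. The fit used edgeR 4.0.16 (R 4.3.3), its quasi-likelihood test and TMM scaling, with Benjamini–Hochberg adjustment. Standard errors derive from the fold change and the F statistic. Genes below the filter were tested among the 32253 genes with at least 1 count, with edgeR's bias-adjusted dispersion, an alternative chosen after seeing the data, because the default fit there assumes the same dispersion for every gene. DESeq2 1.42.0 was an alternative. Python 3.11.15 with pandas 2.3.3, scipy 1.17.1 and matplotlib 3.10.9 was used besides. Coordinates and exon lengths are from GENCODE vM21, matched by gene identifier, and sequences are from RefSeq. The library kit, as named, does not mark strand, and the counting's use of strand is not given in the sources used here. The procedure was tested on simulated data.

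The TRP genes and all lists were chosen with earlier results of these data known. Named genes are the 8 TRP genes, the other superfamily genes passing the filter, the 5 regulator genes with the smallest adjusted p in M/M against wild-type, the 3 genes most like each TRP gene (log2 CPM, prior count 2), defining markers, *Mir204*, *Mir211* and *Xist*. Depth ran from 56162169 to 82090198 counts per library. A count of 0 allows up to 3 counts, for counting error only.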

Additional observations from a re-analysis of the deposited data

How the results depend on the processing

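Every fold change of the 8 TRP channel genes that passed the test kept its direction under every alternative run. Among those that did not pass, *Trpm7* with library size only went from -0.05 to 0.41 in M/M against KO, which then passed (edgeR adjusted p = 9.23e-05), and from -0.11 to 0.09 in I/M against wild-type, which did not. *Trpv4* in KO against wild-type, 0.00, ranged from -0.09 to 0.09, and *Trpm7* in M/M against wild-type, 0.03, lay between -0.00 and 0.08 under all alternatives other than library size only. Of the other named genes, that scaling reversed *Trpc6* in M/M against wild-type (0.46) and KO (0.08), *Pkd2* (0.20) and *Pacsin3* (0.10) in M/M against I/M, and *Plcg1* in M/M against wild-type (0.02), I/M (0.28) and KO (0.17); it moves the median of all genes, as given above. It raised the TRP genes called from 1 to 4 in M/M against wild-type, from 1 to 2 against I/M and from 2 to 4 against KO, and the superfamily genes passing the FDR from 3 to 6 in I/M and from 5 to 8 in M/M against wild-type.

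With no filter, with at least 10 counts in 3 libraries (added after seeing the data) and with no filter and bias-adjusted dispersion, 2 TRP genes were called in M/M against wild-type and 2 against I/M, since *Trpv2* was then tested. Superfamily genes passing numbered 4 in KO with no filter and 2 with at least 10 counts, against 1. With no filter they numbered 6 in I/M, 9 in M/M against wild-type and 12 in M/M against KO, and 5, 8 and 11 with bias-adjusted dispersion. In a fit of only the libraries compared, 1 TRP gene was called in I/M, as *Trpc4* was below that filter, and 0 regulator genes passed in KO.

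Leaving out each library gave 1 to 2 TRP genes called in I/M and 0 to 1 in M/M against wild-type, 0 to 2 in M/M against I/M and 1 to 2 against KO. *Trpc4* was not in the filter of 3 libraries without M/M replicate 1, 2 or 3. With the genes of the full filter kept, 5 superfamily genes passed in I/M without M/M replicate 2. Regulator genes passing ranged from 0 to 3 in KO, with 2 without wild-type replicate 1, KO replicate 1, I/M replicate 2 or M/M replicate 2, and were 15 of 23 in M/M against I/M without I/M replicate 2, M/M replicate 2 or M/M replicate 3.

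Replicate numbers did not pair the libraries (correlations of deviations from -0.264 to 0.149). The replicate block left 2 of 4 regulator genes passing in KO and moved no other count by over 1.5 times. With the longest transcript 4 of 8 places in the order of levels were the same, and by Spearman's correlation 4 of 15 likeness genes. DESeq2, upper-quartile scaling and TMM without crystallins moved none of these counts by over 1.5 times. The counts of *Trpc4* and *Trpv2* in wild-type and KO limit the precision of their fold changes.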
